A study of Mus musculus with 12 samples.

Results

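The genes described here were 8 chemokine receptor genes of mouse chromosome 9, *Ccr1*, *Ccr1l1*, *Ccr2*, *Ccr3*, *Ccr9*, *Ccrl2*, *Cxcr6* and *Xcr1*, read through the ChIP-seq peaks that carry their names. Each deposited peak bears the name of the gene whose transcription start site (TSS) is nearest, and a gene's peaks were chosen by that name alone. The names fell on 46 of 55862 peaks of H3K27ac and on 13 of 26706 peaks of Rpb2. The genes were selected on results of these data, the counts of WT and KO pools included, so the differences between genotypes given below are descriptions.

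The microglia were sorted as CD11b+ CD45lo cells from brains of 2-mo-old mice kept on the C57BL/6J background. WT mice had intact *Cx3cr1*, and KO mice had both copies disrupted by eGFP, so that they lacked the receptor and made eGFP instead. All were littermates of crosses between heterozygotes. Every library was a pool of 3 mice of 1 sex by its label, with 1 pool labelled female and 1 labelled male for each genotype and antibody, and so each comparison of genotypes set 2 pools against 2. Rpb2 is a subunit of RNA polymerase II and marks where the enzyme sits on DNA. H3K27ac is histone H3 acetylated at lysine 27, a mark of active promoters and enhancers. The 4 input samples were not used here. The eGFP allele came with the stretch of chromosome 9 linked to it, and the 2 cannot be told apart by this design. In pooled cells, fewer cells with a signal and less signal per cell cannot be told apart either, and the p-values measure only the spread between pools.

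Chemokine receptors are G protein-coupled receptors that steer leukocytes along gradients of small secreted proteins, and many of their genes arose by tandem duplication and still lie side by side. *Ccr1*, *Ccr2* and *Ccr3* encode receptors for inflammatory CC chemokines, best known on monocytes, other myeloid cells and eosinophils. *Ccr9*, *Cxcr6* and *Xcr1* serve gut-homing lymphocytes, T cells and cross-presenting dendritic cells. *Ccrl2* encodes an atypical receptor that binds chemerin and does not signal as the others do. Homeostatic microglia are known for *Cx3cr1*, the receptor of fractalkine, rather than for these genes.

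Before any comparison, 2 libraries stood apart. The H3K27ac library of the WT female pool had 15.9% of its reads in peaks, against 61.1% to 65.3% in the other 3. The Rpb2 library labelled WT female held 136 reads over 3 peaks on the Y chromosome, against 0 in KO female, 214 in WT male and 266 in KO male, so it goes against its sex label. Reads in peaks numbered 3360624 to 13402567 for H3K27ac and 1309593 to 5415932 for Rpb2. Levels are in CPM, counts normalized to each library's total inside peaks with a correction by trimmed mean of M values (TMM), and differences as log2(KO/WT), the fitted log2 ratio of KO over WT. All 6 microglia markers had peaks of both marks, and their summed Rpb2 level was 7468 and 7627 CPM in WT and 7370 and 7201 CPM in KO. Their summed H3K27ac level was 2927 and 4728 CPM in WT and 4050 and 4198 CPM in KO. Of 6 markers of monocytes and neutrophils, 3 had H3K27ac peaks (68.4 to 74.0 CPM in WT and 66.0 to 79.1 in KO, summed) and 1 had an Rpb2 peak (30.9 to 49.0 CPM in WT and 29.8 to 42.5 in KO), while *Ly6c2*, *Chil3* and *S100a8* had none of either. Of 5 markers of T and NK cells, 2 had H3K27ac peaks (13.6 and 0 CPM in WT, 0.532 and 1.28 in KO) and 0 had an Rpb2 peak. Border macrophages had peaks at 4 of 4 markers for H3K27ac (52.7 to 62.3 CPM over the 4 libraries) and at 0 for Rpb2, and B cells at 1 of 4 (17.9 to 25.6 CPM) and 0. The markers listed for dendritic cells, *Flt3*, *Zbtb46*, *Siglech* and *Clec9a*, had peaks at 4 of 4 for H3K27ac (552 to 857 CPM, summed). For Rpb2 they had peaks at 3 of 4 (946 to 1070 CPM). These sums were not split by gene. Whether they come from dendritic cells, or from listed genes that microglia also express, was not tested, so they do not measure dendritic cells. Neuron markers had H3K27ac peaks at 3 of 3 (17.7 to 59.3 CPM, highest in the WT female library) and no Rpb2 peak. Astrocyte markers had 2 of 3 and 1 of 3 (357 to 520 and 160 to 214 CPM), and oligodendrocyte markers 3 of 3 and 1 of 3 (308 to 358 and 107 to 161 CPM). The part of such cells in the results was not tested. The peaks of *Cx3cr1* did not isolate the coding part replaced by eGFP and do not check the KO label.

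The Rpb2 peaks that held reads in 1 genotype alone, and the called H3K27ac peak of *Cxcr6*, are the ones noted for their reads in 1 genotype and for a call in H3K27ac. The sequences of 4 of them are shown to let a reader see what kind of DNA they are. They come from RefSeq's GRCm38.p6 assembly, the build of the deposited mm10 coordinates, on the plus strand, and capitals mark bases that the assembly masks as repeats. For peaks over 300 bases the central 300 are given.
*Ccr9*, coding exon, Rpb2 in KO alone, chr9:123779681-123779980: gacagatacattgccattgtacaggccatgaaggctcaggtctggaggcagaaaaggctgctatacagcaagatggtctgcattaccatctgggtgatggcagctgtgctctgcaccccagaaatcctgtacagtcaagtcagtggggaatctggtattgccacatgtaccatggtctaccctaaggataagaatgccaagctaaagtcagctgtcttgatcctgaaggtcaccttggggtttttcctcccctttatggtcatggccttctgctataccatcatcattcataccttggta
*Cxcr6*, intron of *Fyco1*, H3K27ac low in KO, chr9:123801522-123801821: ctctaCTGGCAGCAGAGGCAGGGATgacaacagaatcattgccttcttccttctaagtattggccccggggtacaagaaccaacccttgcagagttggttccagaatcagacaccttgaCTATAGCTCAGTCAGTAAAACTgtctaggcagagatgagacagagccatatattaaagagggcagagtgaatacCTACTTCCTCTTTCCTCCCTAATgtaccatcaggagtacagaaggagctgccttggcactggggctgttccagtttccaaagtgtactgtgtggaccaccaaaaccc
*Ccr1*, downstream, Rpb2 in WT alone, chr9:123923569-123923868: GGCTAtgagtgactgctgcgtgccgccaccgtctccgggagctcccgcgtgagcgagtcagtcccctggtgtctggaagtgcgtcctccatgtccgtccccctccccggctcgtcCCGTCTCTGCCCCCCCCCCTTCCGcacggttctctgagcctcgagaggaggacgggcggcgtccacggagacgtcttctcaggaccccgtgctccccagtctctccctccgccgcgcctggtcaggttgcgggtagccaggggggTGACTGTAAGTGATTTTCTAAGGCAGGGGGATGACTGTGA
*Ccr1*, upstream, Rpb2 in KO alone, chr9:123972563-123972862: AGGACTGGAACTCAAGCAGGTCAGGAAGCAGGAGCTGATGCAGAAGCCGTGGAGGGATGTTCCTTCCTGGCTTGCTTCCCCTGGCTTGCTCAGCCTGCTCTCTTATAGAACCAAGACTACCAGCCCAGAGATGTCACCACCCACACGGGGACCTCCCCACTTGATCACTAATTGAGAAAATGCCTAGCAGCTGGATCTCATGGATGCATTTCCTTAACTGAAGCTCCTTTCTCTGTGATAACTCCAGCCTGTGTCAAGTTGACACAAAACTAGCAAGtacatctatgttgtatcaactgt

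Of the 8 genes, 7 lie together. From *Ccr9* to *Ccr2* they span 342 kb (chromosome 9, 123767211 to 124109140), between 3.70 and 4.04 Mb from the RefSeq start of *Cx3cr1*. Their order is *Ccr9*, *Cxcr6*, *Xcr1*, *Ccr1*, *Ccr1l1*, *Ccr3*, *Ccr2*. *Ccrl2* lies at 111054834 to 111057518, at −9.01 Mb, on the other side of *Cx3cr1*, and is not part of the cluster. Their coding sequences are related. Of 28 pairs, 5 shared over 60% of aligned bases, the closest being *Ccr1* and *Ccr1l1* with 75.9% and *Ccr1* and *Ccr3* with 67.8%, and the median pair shared 53.6%.

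The peaks were compared between genotypes with edgeR's quasi-likelihood test over all peaks, with Benjamini-Hochberg adjustment. For Rpb2, 1 of the 13 peaks had an adjusted p under 0.05, and it was lower in KO, against 0.00749% of all 26706 peaks. None was called higher, as none was over the whole table (0%). Without adjustment, p was under 0.05 at 5 of the 13 peaks higher in KO (6.12% of all peaks) and at 2 lower in KO (6.06%), and DESeq2 called 4 higher and 2 lower (436 and 586 of all 26706 peaks). For H3K27ac, 1 of 46 peaks was called and was lower in KO (0.0179% of 55798 tested peaks) and 0 were called higher (0.00538%). Without adjustment, 4 of the 46 peaks were higher (1.35%) and 1 was lower (3.6%), and DESeq2 called 2 higher and 0 lower (32 and 208 of all 55798). Since the genes were chosen with this contrast known, nothing is read from these shares.

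Reads in 1 genotype alone were the feature by which the Rpb2 peaks of this cluster were noticed. Of the 13 Rpb2 peaks, 3 held reads in KO alone (0.756% of all peaks did) and 1 in WT alone (0.0374%). Of the 46 H3K27ac peaks, 0 held reads in KO alone (2.4%) and 1 in WT alone (17.2%). Both KO pools lay above both WT pools at 5 of 13 Rpb2 peaks (25.7%) and 7 of 46 H3K27ac peaks (14.3%), and below them at 3 (21.7%) and 7 (13%).

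**Figure D1:**
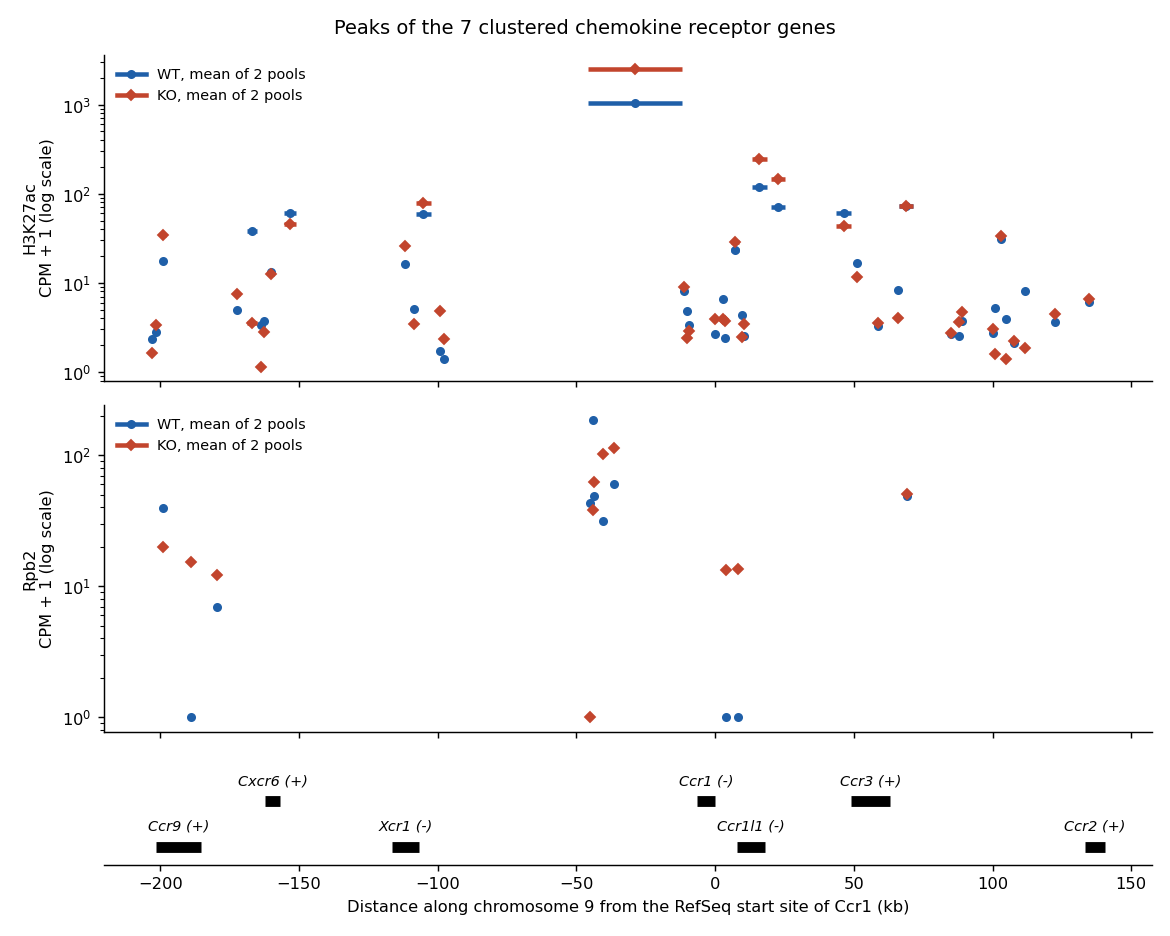
Mean level of each H3K27ac peak (top) and Rpb2 peak (middle) of the 7 clustered genes in WT and KO, as CPM + 1 on a log scale, against the distance in kb along chromosome 9 from the RefSeq start of *Ccr1*, with the gene bodies and strands at the bottom. Horizontal bars give the width of a peak, markers its centre and the mean of 2 pools, and a marker at 1 means 0 reads. The broad H3K27ac peak left of *Ccr1* stands far above the others, and 4 Rpb2 peaks have a marker at 1 in one genotype.

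*Ccr1*, whose receptor binds CCL3 and CCL5, had the most acetylated region of the group, on its 3′ side. A single H3K27ac peak covered 33.6 kb (chromosome 9, 123922966 to 123956576), centred 28921 bp from the deposited TSS. It was 1 of 603 H3K27ac peaks over 10 kb and ranked 17 by width. Its level was 769 CPM in the WT female and 1308 CPM in the WT male pool, against 2546 and 2397 CPM in the KO female and male pools. Both KO pools were above both WT pools. It ranked 6 and 4 among all H3K27ac peaks by level in the WT female and male libraries and 1 in both KO libraries, where it took up 0.250% and 0.236% of the reads in peaks, against 0.0809% and 0.128% in WT. The log2(KO/WT) was 1.25 (SE 0.46, edgeR adjusted p = 0.811), and DESeq2 gave an adjusted p of 0.0375. It was 0.91 without the WT female library and 1.69 without the WT male library. With either left out edgeR's adjusted p was under 0.05, in fits that rest on 1 WT library, assume that it varies like the KO pools, and call 694 and 8157 H3K27ac peaks over the whole table. Without the KO female or KO male library the adjusted p was 0.99996 and 0.99994 by edgeR. RefSeq places the noncoding RNA *Gm51701* in this domain, and GENCODE M21 lists no gene there.

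Rpb2 had 5 peaks inside that domain, all near its left edge, and the genotypes differed in both directions along it. The leftmost peak (123923559 to 123923877) held 54 and 64 reads in the WT female and male libraries, and no read fell there in either KO library. Its WT level was 42.1 ± 0.103 CPM (SD, n = 2 pools), and at that level 231 and 108 reads would have been counted in the KO female and male libraries. Against a floor of 3 reads over both KO pools the KO level was at least 113-fold lower (edgeR's quasi-likelihood test, adjusted p = 0.0282). This was the 1 called Rpb2 peak of the group, and the call was lost without the KO female pool (adjusted p = 0.238) or the KO male pool (adjusted p = 0.0984, both edgeR). The deposited annotation puts the peak in an L1 element, Lx7, though only 27.6% of its bases are masked, and 99.6% of its 51-base windows occur once in the genome.

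The next Rpb2 peak inward lay in a CpG island by the deposited annotation. It held 177 and 193 CPM in the WT female and male libraries and 50.4 and 24.2 CPM in KO. The log2(KO/WT) was −2.29 (SE 0.34, edgeR adjusted p = 0.127), with DESeq2 giving an adjusted p of 1.24e-07. Each KO pool was lower than each WT pool. The peak beside it (123924918 to 123925123) lay in a CpG island too, at 31.1 and 64.5 CPM in WT and 61.9 ± 14.2 CPM in KO (SD, n = 2). Its genotypes overlapped (log2(KO/WT) 0.37, SE 0.41, edgeR adjusted p = 0.747).

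Farther into the domain the order was the opposite. The peak at 123928172 to 123928431, in an exon of *Gm51701*, held 30.3 and 30.3 CPM in WT and 89.8 and 113 CPM in KO, with a log2(KO/WT) of 1.74 (SE 0.34, edgeR adjusted p = 0.198, DESeq2 adjusted p = 0.000144). The peak at 123932072 to 123932275 held 71.5 and 47.4 CPM in WT and 132 and 93.6 CPM in KO, with a log2(KO/WT) of 0.93 (SE 0.32, edgeR adjusted p = 0.285). At both peaks each KO pool was above each WT pool. The log2 ratio of KO to WT was above 0 between pools labelled female (1.57 and 0.88) and between pools labelled male (1.90 and 0.98). Y-linked reads go against the WT female label, so the former pools may not be matched by sex. The 5 peaks share 1 H3K27ac domain and cannot be read as 5 independent observations.

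Little of either mark lay at the *Ccr1* start itself. The H3K27ac peak over it (123968307 to 123968807) had 12, 0, 41 and 33 reads in the WT female, WT male, KO female and KO male libraries, with overlapping CPM. The Rpb2 peak nearest to the start lay upstream, at −4020 bp (123972540 to 123972885). No read fell there in WT, and the KO female and male libraries held 80 and 26. Its KO level was 12.3 ± 3.12 CPM (SD, n = 2), at which 15.9 and 18.8 reads would have been counted in WT. The KO level was at least 11.5-fold higher, against a floor of 3 reads over both WT pools, with an adjusted p of 0.198 by edgeR and 0.0142 by DESeq2. Its sequence, printed above, is almost wholly capitals. The deposited annotation names an MTA_Mm element of the ERVL-MaLR retrovirus-like family, 86.7% of the bases are masked and 66.2% of the 51-base windows occur once in the genome, the lowest share among the 13 Rpb2 peaks.

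*Ccr1l1*, a mouse paralog of *Ccr1* that lies just upstream of it, had the second highest H3K27ac of the group. Of its 5 H3K27ac peaks, the largest (123982022 to 123987326) held 94.9 and 140 CPM in the WT female and male pools and 215 and 268 CPM in KO. The log2(KO/WT) was 1.04 (SE 0.31), with an adjusted p of 0.643 by edgeR and 0.0170 by DESeq2. The deposited distance to the TSS was −6266 bp, but RefSeq starts a longer *Ccr1l1* transcript at 123986715, inside the peak. The next peak upstream (123988974 to 123993926) held 45.5 and 95.4 CPM in WT and 138 and 151 CPM in KO, with a log2(KO/WT) of 1.02 (SE 0.30, adjusted p = 0.607 by edgeR and 0.106 by DESeq2). At both peaks the KO pools were higher than the WT pools. Without the WT female library the values of log2(KO/WT) were 0.78 and 0.59, and without the WT male library 1.35 and 1.66, with edgeR's adjusted p under 0.05 in each of these fits. Without the KO female or KO male library it was 0.99996 and 0.99994 at both peaks.

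The 1 Rpb2 peak of *Ccr1l1* (123976791 to 123977084) lay at the 3′ end of the gene and had no read in either WT library. The KO female and male libraries held 55 and 39, which was 12.6 ± 3.69 CPM (SD, n = 2). At that level 16.2 and 19.1 reads would have been counted in WT, and the KO level was at least 11.8-fold higher (adjusted p = 0.198 by edgeR and 0.0139 by DESeq2). All of its 51-base windows occur once in the genome. The peak over the deposited start of *Ccr1l1* (123978001 to 123978501) was weak in H3K27ac, with 15, 16, 36 and 2 reads in the WT female, WT male, KO female and KO male libraries.

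**Figure D2:**
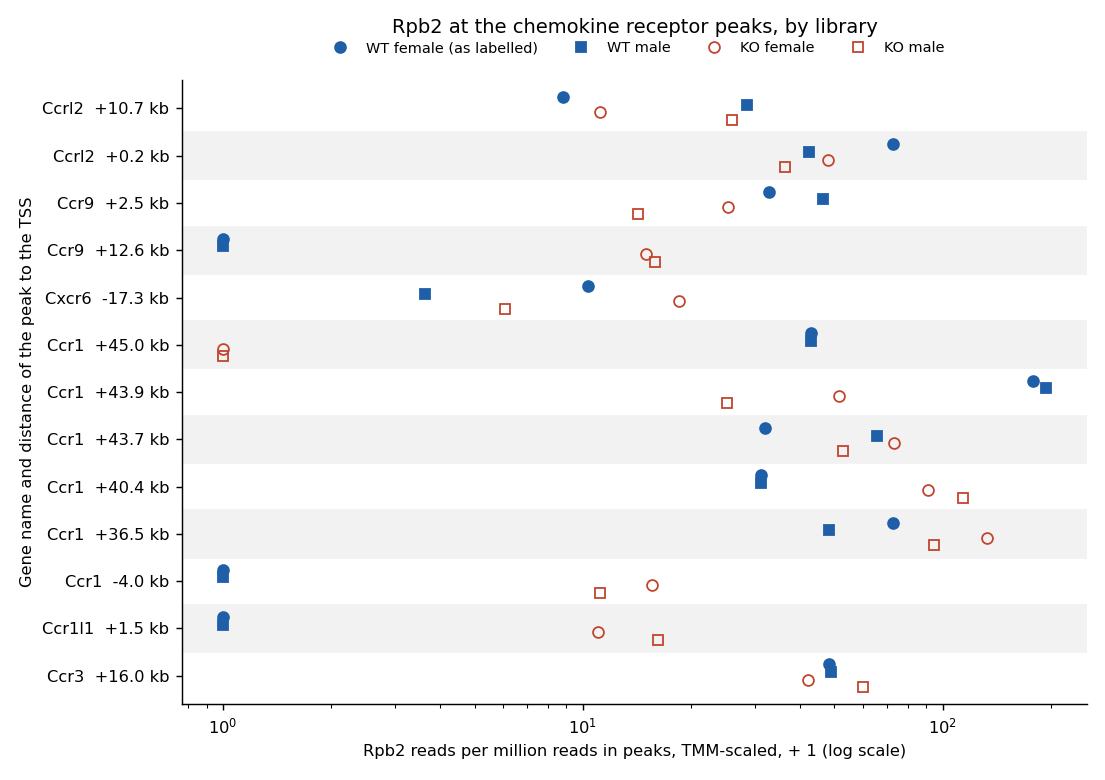
Rpb2 level of each of the 13 peaks in every library, as CPM + 1 on a log scale, ordered along the chromosome and named by gene and distance to the deposited TSS. Filled blue markers are WT and open red ones KO, circles are pools labelled female and squares male, and markers at 1 mean 0 reads. Both WT markers sit at 1 for the *Ccr9* exon peak, the *Ccr1* upstream peak and the *Ccr1l1* peak, and both KO markers do for the *Ccr1* peak farthest downstream.

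*Ccr3*, the eotaxin receptor, and *Ccr2*, the CCL2 receptor of monocytes, close the cluster. The genotypes overlapped at their peaks with the most reads and at those nearest the deposited TSS. The only Rpb2 peak of *Ccr3* (124037770 to 124038096), 15962 bp past its start, held 47.4 and 48.1 CPM in WT and 41.3 and 58.9 CPM in KO. The WT values lay between the KO values, and the log2(KO/WT) was 0.06 (SE 0.38, edgeR adjusted p = 0.963). The deposited annotation names the repeat RLTR26B_MM there, but 7.65% of its bases are masked. The H3K27ac peak around it (124035108 to 124039898) held 47.2 and 97.7 CPM in WT and 66.7 and 75.8 CPM in KO, again with KO inside the WT range. The H3K27ac peak nearest the *Ccr3* start (124018652 to 124020968) held 12.1 and 19.3 CPM in WT and 7.75 and 13.4 CPM in KO, which overlapped. A weaker H3K27ac peak of *Ccr3* (124033909 to 124034947) was lower in both KO pools. It held 8.76 and 5.91 CPM in WT and 2.28 and 3.77 CPM in KO (edgeR adjusted p = 0.847).

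*Ccr2* had 8 H3K27ac peaks and no Rpb2 peak. The one with the most reads (124070561 to 124072893), at −30456 bp from the TSS, held 18.9 and 41.2 CPM in WT and 25.5 and 39.6 CPM in KO. The one nearest its start (124103103 to 124103943) held 3.11 and 7.19 CPM in WT and 4.10 and 7.23 CPM in KO. At both, the genotypes overlapped, with log2(KO/WT) of 0.10 (SE 0.32) and 0.12 (SE 0.999). Of the weaker *Ccr2* peaks, those at 124069492 and 124073157 were lower in both KO pools, and at all others the genotypes overlapped. Both KO pools were below both WT pools at 13% of all H3K27ac peaks. The peak at 124069492 held 3.11 and 5.43 CPM in WT and 1.22 and 0 CPM in KO (edgeR adjusted p = 0.914). The peak at 124073157 held 1.13 and 4.64 CPM in WT and 0 and 0.803 CPM in KO (edgeR adjusted p = 0.976). At no peak of *Ccr3* or *Ccr2* were both KO pools above both WT pools. Another *Ccr2* peak (124079968 to 124080650), annotated as an IAPEY_LTR element, had 2, 86, 22 and 0 reads in the WT female, WT male, KO female and KO male libraries. Its log2(KO/WT) of −3.08 (SE 1.61, edgeR adjusted p = 0.811) was 0.56 without the WT male pool and −8.74 without the KO female pool.

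*Cxcr6*, the receptor of CXCL16, carried the 1 called H3K27ac peak of the group. The peak (123799932 to 123803410) was centred at −4806 bp from the TSS, in intron 14 of *Fyco1*, a gene on the other strand within which *Cxcr6* lies. Its level was 19.8 and 55.3 CPM in the WT female and male pools and 4.10 and 0.963 CPM in the KO pools. Each KO pool was lower than each WT pool, though by different amounts in the sexes, with a log2 ratio of −2.27 between the female and −5.84 between the male pools. The fitted log2(KO/WT) was −3.89 (SE 0.44, edgeR adjusted p = 1.58e-14), with values from −5.27 to −2.95 over the 4 fits with a pool left out, each with an adjusted p under 0.05. DESeq2 gave −3.94 with an adjusted p of 0.0561, and scaling by library totals gave −3.50 with an adjusted p of 0.918 by edgeR. On the other side of the gene a larger peak (123813254 to 123817778) held 52.3 and 66.5 CPM in WT and 40.7 and 47.6 CPM in KO. Its log2(KO/WT) was −0.43 (SE 0.29, edgeR adjusted p = 0.811), and 0.17 with scaling by library totals, which moved the median over all H3K27ac peaks by 0.74. The peak at the *Cxcr6* start (123805780 to 123806280) held 15, 8, 28 and 18 reads in the WT female, WT male, KO female and KO male libraries. The 1 Rpb2 peak given to *Cxcr6* (123789004 to 123789296), at −17327 bp, held 9.33 and 2.63 CPM in WT and 17.5 and 5.07 CPM in KO, which overlapped.

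*Ccr9*, the receptor of CCL25, is the outermost gene on the *Cx3cr1* side. Its Rpb2 peak over coding exon 3 (123779639 to 123780021) had no read in either WT library, and the KO female and male libraries held 77 and 38. The KO level was 14.4 ± 0.581 CPM (SD, n = 2), at which 18.5 and 21.9 reads would have been counted in WT. This was at least 13.5-fold higher than WT, against the same floor, with an adjusted p of 0.198 by edgeR and 0.00879 by DESeq2. All of its bases are unmasked, all 51-base windows occur once in the genome, and no H3K27ac peak overlapped it. GENCODE M21 also places the gene *AC165425.1* there, and reads of the 2 genes cannot be told apart. Without either WT library, the 3 Rpb2 peaks read in KO alone had adjusted p of 0.00314 to 0.00857 by edgeR, and without either KO library 0.801 to 0.948. The other *Ccr9* Rpb2 peak (123769625 to 123769840), 2521 bp past the start, held 31.9 and 45.4 CPM in WT and 24.4 and 13.3 CPM in KO, so it was lower in both KO pools (log2(KO/WT) −1.02, SE 0.52, edgeR adjusted p = 0.457). The H3K27ac peak around it (123768539 to 123770729) was higher in both KO pools, at 36.6 and 30.7 CPM against 13.6 and 19.5 CPM in WT, with a log2(KO/WT) of 1.02 (SE 0.35, edgeR adjusted p = 0.779). With a pool left out, edgeR's adjusted p was 0.00758 without WT male, 0.244 without WT female, and 0.99994 and 0.99996 without KO male and KO female. The 2 marks thus differed in sign at one place, with neither difference past the threshold.

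*Xcr1*, the receptor of XCL1 on cross-presenting dendritic cells, had 5 H3K27ac peaks and no Rpb2 peak. The highest (123860713 to 123866383) was centred at −1519 bp and spanned the RefSeq start. It held 33.9 and 83.4 CPM in WT and 68.5 and 85.9 CPM in KO. Its genotypes overlapped, and the log2(KO/WT) was 0.38 (SE 0.29, edgeR adjusted p = 0.814), −0.12 without the WT female and 1.19 without the WT male library (edgeR adjusted p = 0.817 and 2.77e-05, and 0.99996 and 0.99994 without the KO female and male libraries). The peak at 5039 bp past the start (123856128 to 123857852) held 13.6 and 17.3 CPM in WT and 25.2 and 24.1 CPM in KO. There both KO pools were higher, with a log2(KO/WT) of 0.67 (SE 0.39, edgeR adjusted p = 0.811).

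*Ccrl2*, outside the cluster, had 2 Rpb2 peaks with reads in every library. The peak over its 5′ UTR (111056834 to 111057201), the only Rpb2 peak of the 13 within 1000 bp of a TSS, held 71.5 and 41.5 CPM in WT and 46.9 and 35.5 CPM in KO. Its genotypes overlapped (log2(KO/WT) −0.44, SE 0.41, edgeR adjusted p = 0.683), as did those of the H3K27ac peak over the promoter (111055670 to 111060873), with 32.8 and 62.5 CPM in WT and 67.9 and 57.4 CPM in KO. The 1 member H3K27ac peak read in 1 genotype alone (111085541 to 111086041) lay at −28273 bp and had 3 reads in the WT female library, 35 in the WT male library and none in KO. Against a floor of 3 reads over both KO pools, the KO level was at least 27.5-fold lower (edgeR adjusted p = 0.811), and most of its reads came from the WT male pool.

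**Figure D3:**
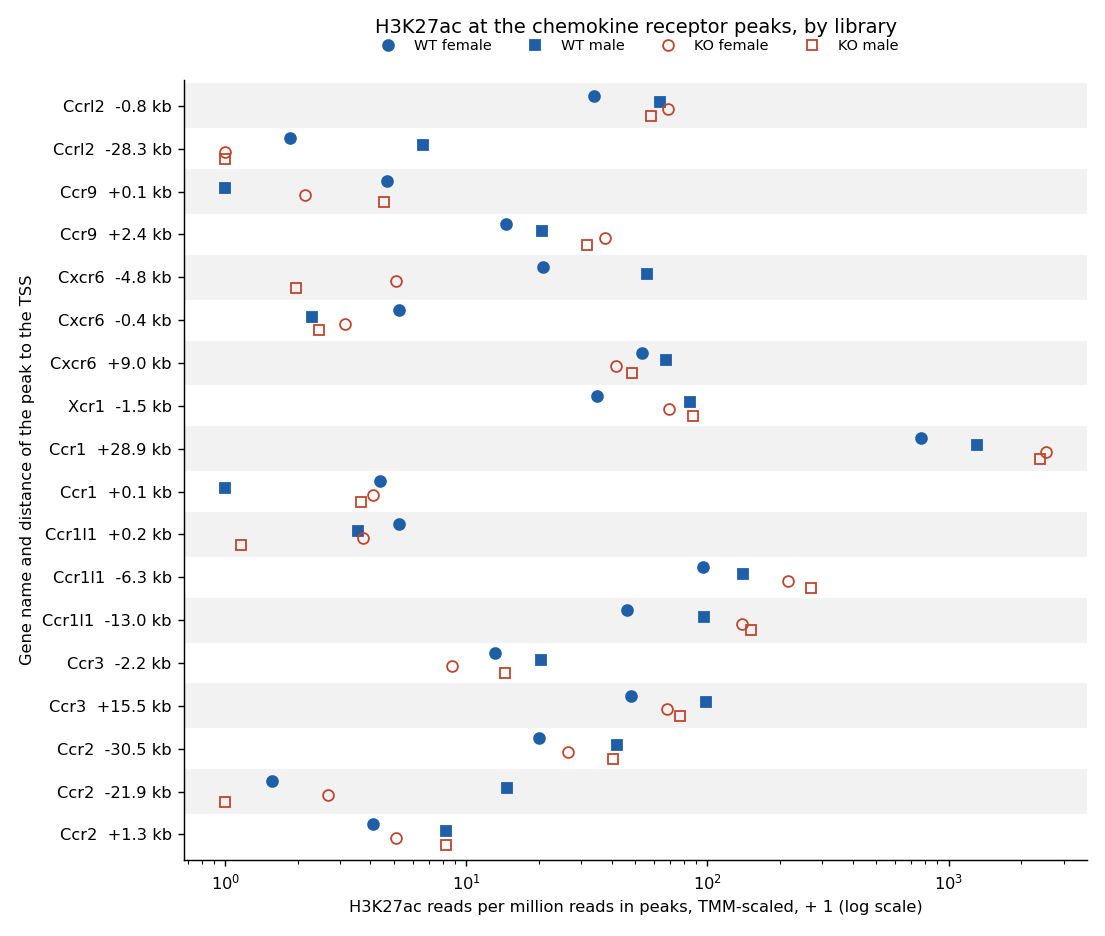
H3K27ac level of the 18 named peaks in every library, as CPM + 1 on a log scale, ordered along the chromosome and named by gene and distance to the deposited TSS. Filled blue markers are WT and open red ones KO, circles female and squares male pools. Both KO markers lie right of both WT markers at the broad *Ccr1* peak, the 2 large *Ccr1l1* peaks and the larger *Ccr9* peak. They lie left of them at the *Cxcr6* peaks at −4806 and 9039 bp and at the *Ccrl2* peak at −28273 bp.

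Levels were compared between genes as CPM per kb of peak, summed over each gene's peaks. They are levels of peaks grouped by name, not of gene bodies. By RefSeq, no Rpb2 peak named for *Ccr1*, *Ccr3* or *Cxcr6* overlapped that gene. Those of *Ccr1* were centred at −4020 bp and at 36519 to 44974 bp from its deposited TSS. For H3K27ac, *Ccr1* had the highest mean over 4 libraries, 47.1 CPM per kb (20.7 to 68.0), followed by *Ccr1l1* with 22.4 (11.2 to 31.7). This order held in each of the 4 libraries, although the ranges over libraries overlapped. The other 6 genes had means of 7.24 to 9.90 CPM per kb with overlapping ranges, and their order is not resolved. For comparison, the peak over *Cx3cr1* had 22.5 and 35.6 CPM per kb in WT and 21.1 and 21.95 in KO. For Rpb2, *Ccr1* was highest with a mean of 214 CPM per kb (181 to 234), then *Ccr3* with 150 (126 to 180), *Ccrl2* with 115 (98.4 to 137) and *Ccr9* with 46.9 to 75.8 over the libraries. Neighbours in that order overlapped for *Ccr3* and *Ccrl2* and did not for *Ccr1* and *Ccr3* or for *Ccrl2* and *Ccr9*. *Ccr1* and *Ccr3* were barely apart, at 181.5 against 180.1 CPM per kb, both in the KO male library. Scaled by library totals, their ranges overlapped (24.1 to 28.1 and 15.7 to 27.9). *Cxcr6* had 29.4 (8.99 to 59.6), which overlapped *Ccr9*, and *Ccr1l1* 0 and 0 in WT and 34.0 and 51.7 in KO. By the highest peak of each gene alone the order was less clear. *Ccr1* ran from 87.3 to 696 CPM per kb of Rpb2 and overlapped *Ccr3*, and *Ccr9* (61.4 to 210) and *Ccrl2* (96.5 to 194) overlapped, with *Ccr9* ranked before *Ccrl2*. *Cx3cr1* itself had 376 and 325 CPM per kb of Rpb2 in WT and 279 and 245 in KO.

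**Figure D4:**
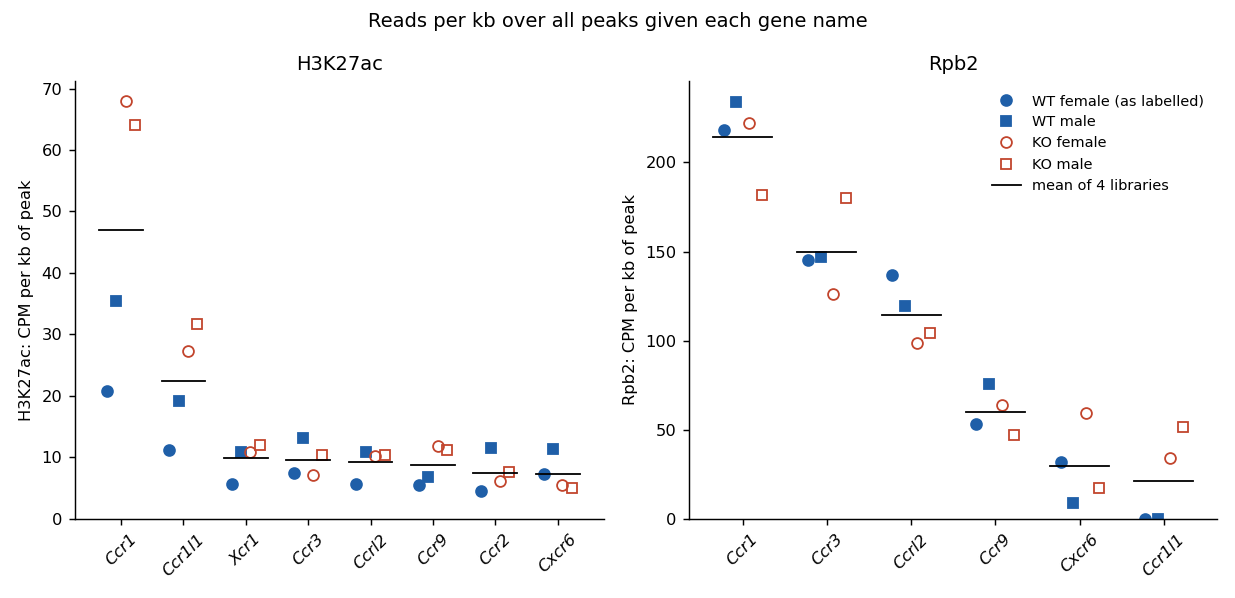
H3K27ac (left) and Rpb2 (right) CPM per kb of peak, summed over the peaks given each gene's name, in every library, with the mean of 4 libraries as a black line. The peaks named for *Ccr1* are highest for both marks, though its Rpb2 peaks lie outside the gene. Their H3K27ac lies higher in the KO libraries (68.0 and 64.01) than in WT (20.7 and 35.5). Their summed Rpb2 does not separate the genotypes.

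The sexes gave a contrast that the choice of genes had not used. With genotype as a covariate, 0 of 46 H3K27ac peaks differed between female and male pools at an adjusted p under 0.05 by edgeR (0.0197% of all peaks did) and 4 had an unadjusted p under 0.05 (3.06%). For Rpb2 the numbers were 0 of 13 (0%) and 1 of 13 (2.81%). The 4 H3K27ac peaks belonged to *Ccrl2*, *Xcr1*, *Ccr3* and *Ccr2* and were lower in the female than in the male pool in both genotypes. The largest of these differences, at the *Ccr3* peak at −7005 bp (124012335 to 124017597), was 41.3 against 78.5 CPM in WT and 28.9 against 56.9 CPM in KO, a log2 ratio of female over male of −0.95 (edgeR, unadjusted p = 0.00331). The weakly enriched WT female library is one of the pools in that comparison, and its part was not tested. For Rpb2, the library labelled WT female holds Y-linked reads, so the Rpb2 contrast compares labels.

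The 2 marks met at most Rpb2 peaks. An H3K27ac peak overlapped 11 of the 13 Rpb2 peaks (84.6%), against 76.6% of all Rpb2 peaks, and the exceptions were the *Ccr9* exon peak and the *Cxcr6* peak. In the other direction 7 of 46 H3K27ac peaks (15.2%) overlapped an Rpb2 peak, against 23.4% overall. None of the 13 Rpb2 peaks came from both lists of reproducible peaks. The KO list alone gave 10 (76.9%, against 53.0% of all Rpb2 peaks) and the WT list alone 3 (23.1%, against 13.7%), whereas 33.3% of all came from both lists. For H3K27ac, 17 of 46 peaks came from both lists (37.0%, against 37.7% of all tested peaks).

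Peaks were also counted by distance from *Cx3cr1*. Between 3.5 and 4.5 Mb on the cluster side, 4 of 28 Rpb2 peaks were read in 1 genotype alone, and these were the 4 described above. In the 5 bins from 20 Mb on one side to 3.5 Mb on the other, 0 of 168, 90, 44, 65 and 51 Rpb2 peaks were. On the other autosomes 193 of 24948 peaks were read in KO alone and 9 in WT alone. The 2 Rpb2 peaks inside the cluster interval that bear another name, both *Fyco1*, were read in both genotypes. Of 65 H3K27ac peaks in the same 3.5 to 4.5 Mb, 0 were read in 1 genotype alone, against 10.9% to 19.8% in the 5 other bins and 19.3% on the other autosomes. By edgeR, 3 of these 65 were called, the *Cxcr6* peak included, 1 of 116 at −5 to −1 Mb, 1 of 62 within 1 Mb of *Cx3cr1*, and 7 of 51332 on the other autosomes. For Rpb2, 1 of 28 was called at 3.5 to 4.5 Mb and 1 of 65 within 1 Mb. The 4 Rpb2 peaks are those by which the cluster was noticed, so these counts are a description from which nothing is read.

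Genes of the same family elsewhere gave a reference for the group. Of 48 Rpb2 peaks of 5 other receptor genes, 25 were peaks of *Cx3cr1*. By edgeR, 1 of the 48 was called and was lower in KO (0.00749% of all Rpb2 peaks). DESeq2 called 4 (1022 of all 26706). Without adjustment, edgeR's p was under 0.05 at 2 higher in KO (6.12% of all Rpb2 peaks) and 7 lower (6.06%). Of 16 peaks of 12 chemokine ligand genes, 0 were called by edgeR or DESeq2. Unadjusted p was under 0.05 at 0 higher and 2 lower, beside the same shares of all peaks. The called peak (120046323 to 120046820) lay past the 3′ end of *Cx3cr1* by RefSeq and inside the longer gene of GENCODE M21. It held 327 and 290 CPM in WT and 35.1 and 50.7 CPM in KO (edgeR adjusted p = 0.00264). For H3K27ac, 0 of 49 peaks of 13 other receptor genes and 0 of 91 peaks of 22 ligand genes were called by edgeR or DESeq2. Over all 55798 tested peaks, edgeR called 13 and DESeq2 240. Unadjusted p by edgeR was under 0.05 at 0 of the receptor peaks. Among the ligand peaks it was at 5 higher in KO (1.35% of all H3K27ac peaks) and 2 lower (3.6%). *Ccr6*, the CCL20 receptor and the most read of these receptor genes after *Cx3cr1*, had a median log2(KO/WT) of −0.05 over 9 H3K27ac peaks and 0.15 over 13 Rpb2 peaks. The median log2(KO/WT) was 0.37 over the 13 Rpb2 and 0.14 over the 46 H3K27ac peaks of the 8 genes, and 0.04 and −0.21 over all tested peaks.

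Most Rpb2 peaks lay in unique sequence. Of all 13 Rpb2 peaks, 11 had over 99% unique 51-base windows. The others were the *Ccr1* upstream peak and the peak at 123924918, with 75.0%.

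Promoters were read from RefSeq, which gave a window for each of the 8 genes. On either strand, the PU.1 core GAGGAA was found in those of *Ccr1* (129 bases before the start) and *Ccr3* (181 bases), and in 28.3% of 32851 promoters. The AP-1 motif TGANTCA was found in those of *Ccr1l1* (6 bases before the start) and *Ccr3* (144 bases), and in 7.81% of all. A longer PU.1 motif, GAGGAAGT, was in none of the 8 and in 3.20% of all. The *Ccr1* and *Ccr1l1* windows from 250 bases before to 10 after the start are shown. H3K27ac peaks lie over both starts, and also over the RefSeq starts of *Ccr9*, *Xcr1* and *Ccrl2*, whose windows are not shown. Capitals mark the PU.1 core and AP-1 motifs alone, and a match is a description of letters only.
*Ccr1* promoter, minus strand, chr9:123968683-123968942: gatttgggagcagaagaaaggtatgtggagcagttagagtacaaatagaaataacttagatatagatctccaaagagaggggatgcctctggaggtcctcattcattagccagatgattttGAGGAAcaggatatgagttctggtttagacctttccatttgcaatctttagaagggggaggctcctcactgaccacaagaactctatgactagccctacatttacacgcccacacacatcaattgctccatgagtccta
*Ccr1l1* promoter, minus strand, chr9:123986706-123986965: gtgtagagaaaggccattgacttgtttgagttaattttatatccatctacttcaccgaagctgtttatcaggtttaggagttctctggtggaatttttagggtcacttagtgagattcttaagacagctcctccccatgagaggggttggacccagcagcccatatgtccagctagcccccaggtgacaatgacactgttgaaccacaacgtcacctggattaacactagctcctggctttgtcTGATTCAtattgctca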

How the data were processed

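H3K27ac and Rpb2 ChIP-seq of sorted microglia was deposited as 1 table per antibody. The study's methods give 51-nt single-end reads aligned by Bowtie 2 to mm10, with multiply mapped reads dropped. Peaks were called in HOMER, filtered for reproducibility between pools (IDR), and the lists of WT and KO were then joined. The authors deposited unnormalized read counts for each joined peak in each library. Tool versions are not given in the sources used here.

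From these counts, peaks averaging 4 or more reads in either genotype were fitted with edgeR 4.0.16 under R 4.3.3 (TMM on reads in peaks, genotype alone, quasi-likelihood test, Benjamini-Hochberg over all tested peaks, threshold 0.05). All 46 H3K27ac and 13 Rpb2 peaks of the 8 genes passed. This fit took all peaks, since only 6 and 1 of them lie within 1000 bp of a TSS. Alternatives were DESeq2 1.42.0, other scalings and filters, sex as a block and each pool left out. On simulated counts with 200 peaks changed 4-fold, edgeR recovered 129 for H3K27ac (64.5%), with 159 false calls among 50421 peaks. The simulated H3K27ac calls at an adjusted p under 0.05 were thus more often false than true. For Rpb2 it recovered 111 (55.5%), with 5 false calls among 26706. The changed peaks were drawn from those with higher mean counts, and recovery at weaker peaks was not tested. Floors of 3 reads cover counting error only. Deviations of same-sex pools from their group means correlated by −0.00027 for H3K27ac and −0.0076 for Rpb2, and the pools are different mice, so sex was not used as a pairing. The number of unused columns of per-sample values was 0.

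The genes, gene lists and marker lists were chosen with earlier results of these data known. The peaks named were, for each gene and mark, the one with the most reads and the one nearest the TSS, every peak called or read in 1 genotype alone, and the 6 with the lowest p per mark. Peaks named besides were chosen after their values were seen. Among other family genes, those with a called peak and the 3 most read were to be named, of which 1 is not reported here. Coordinates are mm10, and genes, sequences and promoters come from RefSeq's GRCm38.p6 and GENCODE M21.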

Additional observations from a re-analysis of the deposited data

How the results depend on the processing

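Of 284 values of log2(KO/WT) recomputed under alternatives for 29 peaks named above, 265 kept their sign and 19 did not, of which 9 came from leaving out 1 H3K27ac WT pool. For H3K27ac, 13 peaks were called over the whole table and 1 among those of the 8 genes. Scaling by library totals gave 0 and 0 and moved the median log2(KO/WT) over all peaks by 0.74. Peaks within 1000 bp of a TSS gave 0 and 0 from fewer peaks, at least 10 reads in every library gave 1 over the whole table, and DESeq2 gave 240 and 2. Without 1 pool the counts ran from 2 to 8157 and from 1 to 8. They were 694 and 6 without WT female, 8157 and 8 without WT male, 2 and 1 without KO female and 6 and 1 without KO male. For Rpb2, 2 and 1 peaks were called. At least 10 reads in every library gave 30 and 2, peaks near a TSS 0 and 0, and DESeq2 1022 and 6, while totals moved the median by 0.33. Without 1 pool the counts ran from 0 to 2210 and from 0 to 7. They were 2210 and 7 without WT female, 1963 and 6 without WT male, 0 and 0 without KO female and 2 and 0 without KO male. The causes were not tested. A fit with 1 pool left out assumes that the lone pool varies like the others. The comparison of sexes could not be refitted without a pool, since no residual degrees of freedom remain.

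With sex as a replicate block, the H3K27ac counts were 12 over the whole table and 1 among the 8 genes, and the Rpb2 counts were 4 and 2. The added Rpb2 call was the *Ccr1* peak next to the leftmost of its domain (adjusted p = 0.00578, edgeR). For Rpb2 this block follows a WT female label that Y-linked reads go against. Pools of the same sex were different mice, and their deviations did not correlate. Depth limits the weak peaks most: 3 reads over both WT pools are 1.07 CPM for Rpb2.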
